A study of Mus musculus with 15 samples.

Results

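The response of wild-type CD4+ T cells to a low-level T-cell receptor (TCR) stimulus was taken from 6 of the 15 arrays of the series, 3 labelled WT stimulated and 3 labelled WT control. Each stimulated array was set against the control array with the same replicate number, which gave 3 differences for each of 45101 probe sets. All 6 samples were CD4+ T cells that had been sorted by flow cytometry from the spleens of WT mice of 6 to 20 weeks. The mice were on the 129/SJ background and, by the methods, littermates of either N-ras or H-ras KO mice. The sorted cells were cultured overnight in T-cell growth medium. The stimulated cells also received 1 µg/ml of antibodies to CD3 (the CD3e chain) and CD28, and the control cells received no antibody. The study asked which genes N-ras regulates in stimulated T-cells, and the remaining arrays hold N-ras KO CD4+ T cells treated the same way (3 stimulated and 3 control) and thymocytes, which were not used here.

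CD3 carries the signal of the TCR into the cell and CD28 is the main costimulatory receptor of naive T cells. Crosslinking both activates the Ras to ERK, calcineurin and NF-kappaB pathways, which switch on immediate early genes such as Fos, Egr1 and Nr4a1. Production of IL-2 and its receptor then follows, together with growth, a rise in protein synthesis and entry into the cell cycle.

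The deposited values were relative ones. Each of the 45101 probe sets had a median of 0 over the 3 WT control arrays (tolerance 0.000001), so that a value is a log2 difference from the middle control and tells nothing about how bright a probe set was. The label of the cells could therefore not be checked by the level of a marker, and only shifts between arrays can be described. Cd4 had mean differences of 0.07 and -0.07 log2 on its 2 probe sets, Cd3e of 0.00 log2 and Cd28 of -0.15 and -0.02 log2, with standard errors of 0.12 to 0.23. The arrays of replicate 1 stood apart from the other WT arrays in genes that stimulation does not concern. The Y-linked gene Kdm5d read 7.40 log2 in WT control 1 and 7.47 log2 in WT stimulated 1, against -0.56 to 0.21 log2 in the other 4 arrays, and the X-inactivation gene Xist read -6.09 and -5.78 log2 on one probe set, against -0.34 to 1.74 log2. The same pair read -2.68 and -3.04 log2 on one probe set of Nras and -1.23 log2 in both arrays on another, against -0.10 to 0.65 log2 in the other arrays, although the label is WT. On the remaining Nras probe set WT control 1 was low (-1.61 log2) and WT stimulated 1 was not (-0.14 log2, against -0.19 to 0.38 log2). Each number thus carried its own signature into both arrays, and results are given with and without pair 1. Of 38 measured lineage markers, 1 was higher at the thresholds given below (Ms4a1, of 6 B-cell markers), 1 was lower (Klrd1, of 6 CD8 and NK markers) and no T-cell, neutrophil, macrophage, erythroid or platelet marker passed. Over all genes 2.81% were higher and 2.33% lower, so that 1 of 38 in each direction is near the share of the array. The mean over 7 neutrophil markers was low in both arrays of replicate 2 (-1.90 and -1.63 log2, against -0.49 to 0.41 log2 elsewhere), and in replicate 3 it was 0.41 log2 in the control and -0.49 log2 in the stimulated array. The mean over the 6 CD8 and NK markers was lower in the stimulated array of every pair (-0.50 and -0.99, 0.19 and -0.23, and 0.35 and -0.22 log2), with a list median of -0.52 log2. There Klrd1 was at -1.43 log2 (not past the thresholds without pair 1 or pair 3), Gzma at -1.04 log2 and Ncr1 at -0.70 log2, neither of which passed. These 3 had the smallest p of the list. Of its 6 markers 4 had a mean below 0 and 2 a mean above 0, so the fall was not shared by all. The part of these markers in the results below was not tested. Fewer cells of a type and less RNA per cell cannot be told apart in such bulk samples.

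No probe set passed an adjusted p of 0.05 (0 of 45101, 0%; smallest adjusted p = 0.981, limma with Benjamini-Hochberg adjustment), and an unadjusted p of 0.05 was reached by 1941 (4.30%), close to the level of the test itself. The 3 differences correlated weakly across the array, at 0.03, 0.04 and 0.13, and 12631 probe sets (28.0%) had all 3 differences on the same side of 0. Every count below therefore uses the unadjusted p of 0.05 and the 1.5-fold change of the study's methods, called the thresholds from here on, and is a description rather than a list of established changes. At these thresholds 645 probe sets (1.43%) were higher and 617 (1.37%) lower after stimulation. By gene, where 1 probe set suffices, 512 of 18194 genes (2.81%) were higher and 424 (2.33%) lower. Over the array the directions were almost even, with a median difference of 0.01 log2 per gene. A change of at least 1.5-fold in every pair was more one-sided, with 196 genes (1.08%) higher and 91 (0.500%) lower. That lean depends on the pairs, since by probe set the counts were 258 higher and 152 lower over 3 pairs but 681 and 915 without pair 1 and 891 and 897 without pair 3. Without pair 1 the gene counts at the thresholds were 510 (2.80%) and 425 (2.34%).

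Of 20 measured activation and costimulatory receptors, 7 (35.0%) were higher at the thresholds and 0 lower. Over all genes the shares were 2.81% and 2.33%, against which the percentages of all lists below stand. The median difference of the receptors was 0.50 log2 against 0.01 log2 over all genes. Cd69, the early activation antigen that holds T cells in lymphoid tissue, read 0.00, 0.47 and -0.56 log2 in control arrays 1 to 3 and 1.19, 1.17 and 0.94 log2 in the stimulated arrays. The lowest stimulated array was above the highest control array, and the mean difference was 1.13 log2 (2.19-fold, standard error 0.18). How many of all probe sets separate in this way was not counted, here or below. Genes named for it were chosen by small p or large change, so that the separation is a description only. Cd83, a surface protein that stabilizes MHC class II and CD86, was even tighter, at 0.00, -0.06 and 0.17 log2 in controls and 0.93, 1.04 and 1.03 log2 after stimulation, a mean of 0.96 log2 (1.95-fold, standard error 0.14). Slamf1, a self-ligand receptor of activated lymphocytes, had the smaller difference of 0.76 log2 with overlapping groups, since its 3 control arrays spanned -0.74 to 0.81 log2 while the 3 within-pair differences spanned only 0.66 to 0.87. Tnfrsf9 (4-1BB), a costimulatory receptor absent from resting T cells, was the largest of the group at 2.00 log2 (standard error 0.34), from -0.04, 0.00 and 0.65 log2 to 2.13, 1.61 and 2.88 log2. Its second probe set gave 1.37 log2, and the remaining one -0.39 log2. Il2ra, the alpha chain of the IL-2 receptor, Tnfrsf4 (OX40) and Tfrc, the transferrin receptor, complete the 7. Cd69, Cd83, Slamf1, Tnfrsf9 and Il2ra passed with any 1 pair left out. Tfrc did not pass without pair 1 or pair 3, nor Tnfrsf4 without pair 2, where their means were 0.60 to 0.87 log2. The other probe sets of Tfrc were at -0.66 to 1.23 log2 over the 3 pairs and did not pass. Icos, another CD28 relative, stayed near 0 on its 3 probe sets (0.17, 0.14 and 0.00 log2).

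**Figure D1:**
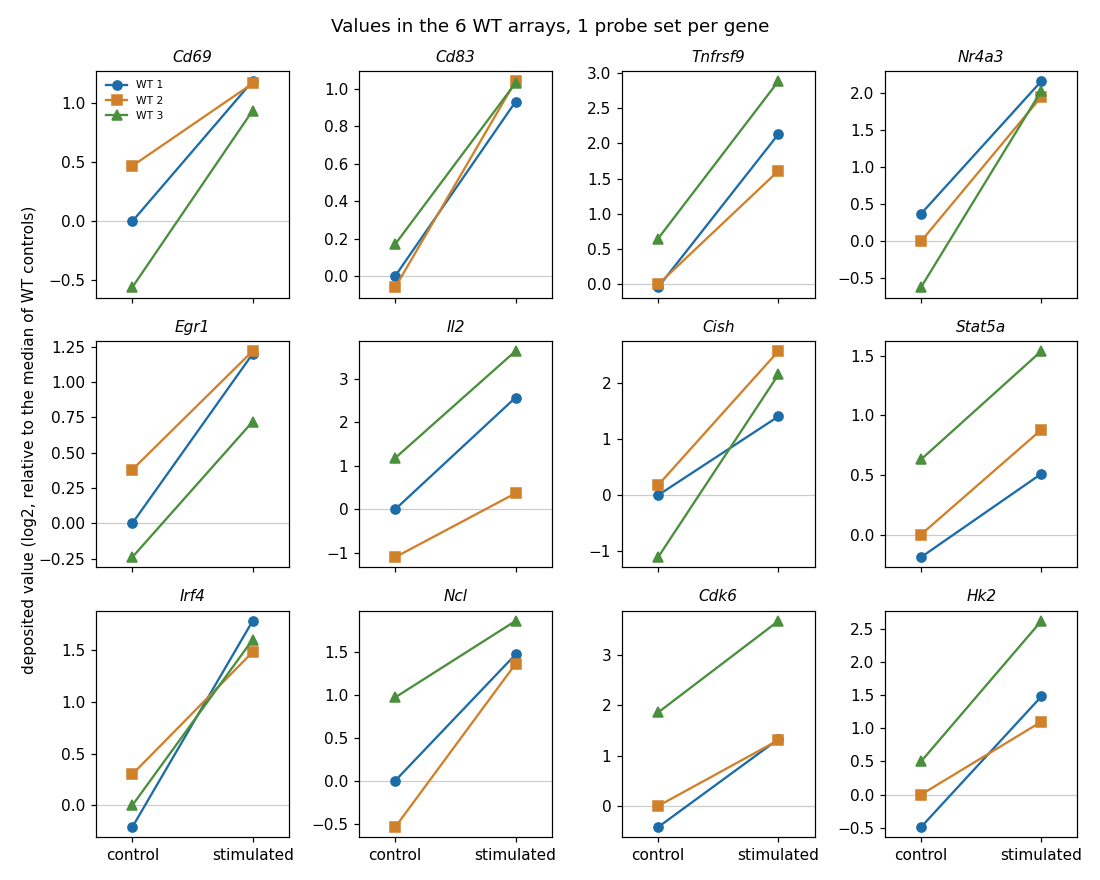
Deposited log2 values of 12 genes in the 6 WT arrays, control on the left and stimulated on the right of each panel, with a line joining the arrays of the same replicate number and 1 probe set (the smallest p) per gene. All lines run upwards, and in Il2, Cdk6 and Stat5a the offset between the numbers is about as large as the rise itself.

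The immediate early and TCR reporter genes, which report recent receptor signalling, had 8 of 25 members (32.0%) higher and 0 lower, with a median of 0.23 log2. The nuclear receptor gene Nr4a3 read 0.37, 0.00 and -0.62 log2 in controls and 2.16, 1.95 and 2.03 log2 after stimulation. The groups did not overlap, and its mean difference of 2.13 log2 (4.38-fold, standard error 0.28) was 2.30 log2 without pair 1. Its other 2 probe sets were at 0.53 and -0.15 log2. Egr1, a zinc finger factor downstream of ERK, moved from 0.00, 0.38 and -0.24 log2 to 1.20, 1.22 and 0.72 log2, a mean of 1.00 log2 (2.00-fold, standard error 0.15). Egr2, Nr4a1 and Myc also passed with any 1 pair left out. Fos, Egr3 and Nr4a2 passed over all 3 pairs but each failed without at least 2 of them in turn, with means of 0.63 to 2.73 log2 then. For Fos the first pair alone gave 4.33 log2 and the others 1.13 and 1.88 log2. Other probe sets of Nr4a2 were at -0.06 to 0.50 log2 without pair 1. Upstream of these genes, 0 of 15 members of the Ras to ERK cascade and 0 of 23 members of the TCR complex and its proximal signalling proteins were higher, while 1 (6.67%) and 2 (8.70%) were lower. Those were the Ras exchange factor gene Sos1, which stands in both lists, at -0.59 log2 and Themis, a regulator of TCR signal strength, at -1.05 log2 (-2.30, -0.22 and -0.64 log2 in the pairs). Neither passed without pair 1, where Themis was at -0.43 log2 and Sos1 at -0.52 log2. Without that pair the Ras to ERK list had 3 members higher and 1 lower, and the TCR list 1 higher and 0 lower.

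Feedback inhibitors, which damp the same signals, had 5 of 26 members higher (19.2%) and 1 lower (3.85%). Cish, an inhibitor of cytokine receptor signalling that STAT5 induces, had the largest difference, with 0.00, 0.18 and -1.11 log2 in controls and 1.41, 2.58 and 2.16 log2 in stimulated arrays. Its mean was 2.36 log2 (5.14-fold, standard error 0.34). Dusp5, a nuclear phosphatase of ERK, moved from 0.34, 0.00 and -0.37 log2 to 1.18, 0.70 and 0.77 log2, a mean of 0.89 log2. In both genes every stimulated array was above every control array. The phosphatase gene Dusp16, which acts on JNK, was the member that was lower. Spry1 and Rgs1 passed over the 3 pairs but not without pair 1, where Spry1 was at 0.81 log2 and Rgs1 likewise lost its call. No member of the NF-kappaB list (16 measured) passed in either direction, although its median was 0.23 log2. Nfkbia, the inhibitor that NF-kappaB itself induces, was at 0.50 log2 and below 1.5-fold in mean (1.42-fold), and Rel, the subunit typical of activated lymphocytes, was at 0.61 log2 with a standard error of 0.50.

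The promoters of 4 of the genes that were higher are shown because each holds the motif of a pathway that TCR or IL-2 receptor signalling uses. They are the 250 bases before the RefSeq start on GRCm38.p6, 5′ to 3′, and where a gene has several starts the first one with the motif was taken (Egr2 has 5 starts, 4 of them with the motif, Irf8 has 2, and Il2ra and Dusp5 have 1 each). Capitals mark the CArG box in Egr2 and Dusp5, to which serum response factor binds, the NF-kappaB motif in Il2ra, and the STAT motif TTCNNNGAA in Irf8.
Egr2, chr10:67537316-67537565, plus strand: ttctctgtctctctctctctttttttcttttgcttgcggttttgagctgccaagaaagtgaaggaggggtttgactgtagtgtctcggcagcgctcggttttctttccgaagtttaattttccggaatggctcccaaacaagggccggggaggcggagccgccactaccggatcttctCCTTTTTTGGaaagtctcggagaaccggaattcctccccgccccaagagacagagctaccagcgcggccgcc
Dusp5, chr19:53528895-53529144, plus strand: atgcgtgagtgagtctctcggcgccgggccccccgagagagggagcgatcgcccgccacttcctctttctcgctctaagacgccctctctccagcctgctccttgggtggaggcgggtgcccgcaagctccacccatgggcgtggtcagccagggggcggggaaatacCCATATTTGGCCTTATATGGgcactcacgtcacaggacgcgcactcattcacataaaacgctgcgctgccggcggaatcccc
Il2ra, chr2:11642542-11642791, plus strand: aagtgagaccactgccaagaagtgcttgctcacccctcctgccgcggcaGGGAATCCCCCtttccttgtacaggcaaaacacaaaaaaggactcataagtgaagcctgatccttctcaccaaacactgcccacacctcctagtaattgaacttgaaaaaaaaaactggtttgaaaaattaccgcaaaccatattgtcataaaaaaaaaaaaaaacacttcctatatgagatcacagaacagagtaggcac
Irf8, chr8:120736108-120736357, plus strand: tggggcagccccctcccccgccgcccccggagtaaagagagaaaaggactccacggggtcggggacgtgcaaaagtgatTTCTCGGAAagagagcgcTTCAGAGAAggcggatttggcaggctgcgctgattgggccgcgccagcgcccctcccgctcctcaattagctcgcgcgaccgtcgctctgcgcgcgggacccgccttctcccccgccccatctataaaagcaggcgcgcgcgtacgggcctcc
The matches begin 72 bases before the start in Egr2, 82 and 72 bases before it in Dusp5, where one follows directly on the other, and 171 and 153 bases before it in Irf8. In Il2ra 2 overlapping matches begin 201 and 200 bases before the start. Both strands were searched. Among all 32851 RefSeq windows of this length, 1.47% held a CArG box, 7.25% an NF-kappaB motif, 7.02% TTCNNNGAA and 6.75% the AP-1 motif TGANTCA. Among the 18110 windows of genes on the array the shares were 1.23%, 8.56%, 6.21% and 5.62%. Among the 522 windows of genes that were higher (399 of the 512 genes have one) the shares were 2.30%, 9.96%, 7.47% and 4.41%, and among the 436 windows of genes that were lower 0.917%, 10.3%, 5.50% and 3.67%. These shares count windows and not genes. Egr2 alone gave 4 of the 12 windows with a CArG box among those of higher genes, so that the 2.30% leans on 1 gene. A match describes letters in a window and not a site in use.

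Cytokine genes had the highest median of all lists, 0.51 log2, with 8 of 22 members (36.4%) higher and 0 lower. The smallest p belonged to Lta, which encodes lymphotoxin alpha. It read 0.00, -0.39 and 2.37 log2 in controls and 0.67, 0.42 and 3.14 log2 after stimulation, so that the groups overlapped widely while the 3 differences were 0.67, 0.81 and 0.78 log2 (mean 0.75, standard error 0.15). Tnfsf11 (RANKL), a ligand that T cells use to signal to dendritic cells and osteoclasts, was at 1.03 log2, Il17a, the cytokine of Th17 cells, at 0.82 log2, and Tnfsf14 (LIGHT) at 0.96 and 0.93 log2 on its 2 probe sets. These 4 passed with any 1 pair left out. Il2, the growth factor of T cells, had a much larger difference, 2.17 log2 (4.49-fold), but with a standard error of 0.66. It read 0.00, -1.10 and 1.18 log2 in controls and 2.57, 0.37 and 3.64 log2 after stimulation, and did not pass without pair 1 (1.96 log2) or without pair 3 (2.02 log2). Il21, Tnf and Tnfsf8 likewise lost their calls without pair 3, and Il21 also without pair 1. The signature cytokines of Th1 and Th2 cells did not pass, with Ifng at 0.53 log2 (-0.28, 1.67 and 0.19 log2 in the pairs) and Il4 at -0.28 log2 (0.12, -1.28 and 0.31 log2).

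Of 27 cytokine receptor and STAT genes, 5 (18.5%) were higher and 0 lower. Besides Cish they were Stat5a, the transcription factor that IL-2 activates, at 0.83 log2 (1.78-fold, standard error 0.13), Il2rb, the beta chain of its receptor, at 0.76 log2 (1.70-fold, standard error 0.15), Socs2 and Il4ra. The differences of Stat5a were 0.70, 0.88 and 0.91 log2 and those of Il2rb 0.69, 0.96 and 0.64 log2. In Stat5a the control of replicate 3 (0.63 log2) was above the stimulated array of replicate 1 (0.51 log2), so that the groups overlapped and only the pairs separate them, and its second probe set was at 0.14 log2. Il4ra did not pass without pair 2 or pair 3 (0.32 to 0.79 log2). Chemokines and their receptors had 4 of 23 members (17.4%) higher and a median of 0.29 log2. Ccl22, a ligand of the receptor CCR4, read 0.00, -0.33 and 2.20 log2 in controls and 3.06, 3.24 and 5.41 log2 after stimulation, without overlap and with even differences of 3.06, 3.57 and 3.22 log2 (mean 3.28 log2, 9.73-fold, standard error 0.81). Ccr8, a chemokine receptor of Th2 and regulatory T cells, moved from -0.31, 0.00 and 0.58 log2 to 4.19, 2.23 and 3.34 log2, a mean of 3.16 log2 (8.95-fold, standard error 0.51) that was 2.49 log2 without pair 1. Ccl4, a chemoattractant for monocytes and T cells, moved from -0.49, 0.00 and 0.28 log2 to 3.09, 1.35 and 1.30 log2, a mean of 1.98 log2, or 1.18 log2 without pair 1. These 3 passed with any 1 pair left out. Cxcl10, an interferon-induced chemokine, was at 1.47 log2, of which pair 3 held 3.13 log2, and did not pass without pair 2 or pair 3. Ccl3, which is of the same family as Ccl4, did not follow Ccl4 (0.86, -0.68 and 0.08 log2).

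Effector and lineage transcription factors gave a mixed picture. Of 27 members 5 (18.5%) were higher and the median was 0.07 log2. Irf4 and Irf8, interferon regulatory factors of lymphocyte differentiation, and Eomes, a T-box factor of memory and cytotoxic T cells, passed with any 1 pair left out. Irf8 read -0.19, 1.02 and 0.00 log2 in controls and 1.31, 2.26 and 1.51 log2 after stimulation (mean 1.42 log2, 2.67-fold, standard error 0.27). Eomes read 0.00, -0.23 and 0.23 log2 and then 1.30, 0.95 and 2.87 log2 (mean 1.70 log2, 3.26-fold, standard error 0.37). Foxp3, the master factor of regulatory T cells, had even differences of 1.40, 1.32 and 1.21 log2, while its control values spanned -1.78 to 1.63 log2. It did not pass without pair 1 or pair 2, although its mean stayed at 1.27 and 1.30 log2. The unadjusted p in limma was then 0.0583 and 0.0544. Rora, a factor of Th17 cells, lost its call without pair 2, and its other probe sets were at -0.44 to 0.21 log2 without pair 1.

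**Figure D2:**
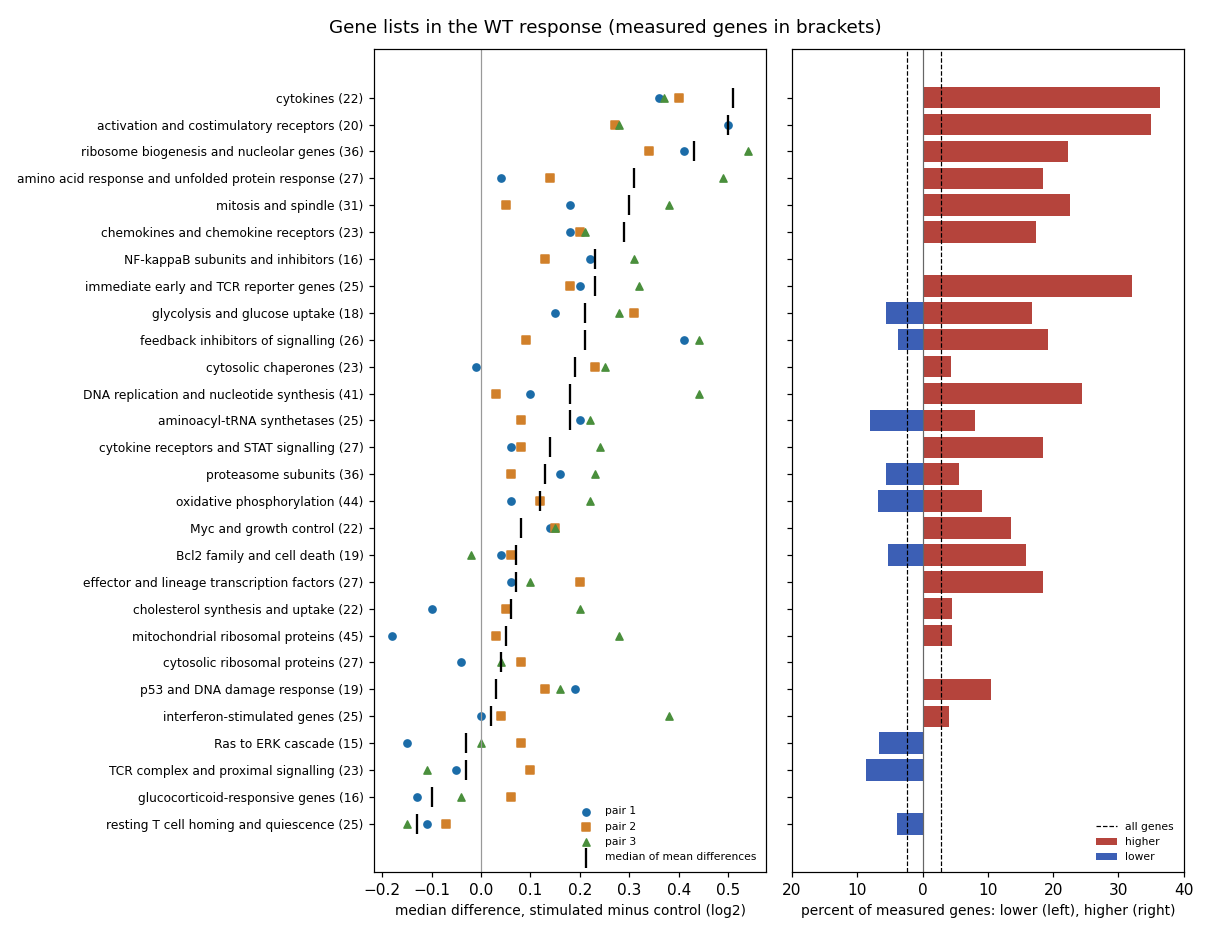
Gene lists in the WT response. Left, the median log2 difference over the genes of each list in pairs 1, 2 and 3 (coloured points) and the median of the mean differences (black bar). Right, the percent of measured genes higher (red, to the right) and lower (blue, to the left) at the thresholds, with dashed lines at 2.81% and 2.33% for all genes. Cytokines, activation receptors and ribosome biogenesis genes stand at the top, and the resting T cell list at the bottom has a median of -0.13 log2.

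Among 25 measured homing and quiescence genes of resting T cells, 1, Satb1, was lower at the thresholds and 0 were higher. A mean below 0 was seen in 21 of the 25, against 8723 of 18194 over all genes, and the median was -0.11, -0.07 and -0.15 log2 in the pairs. Satb1, a chromatin organizer of T cells, was at -2.02, -0.17 and -1.69 log2 in the pairs and did not pass without pair 1 or pair 3, and its other 4 probe sets were at -0.34 to -0.07 log2. Il7r, the receptor for the survival cytokine IL-7, was at -0.35 log2 (standard error 0.16). Ccr7 and Klf2, which direct naive T cells to lymph nodes, were at 0.13 and 0.02 log2, and S1pr1, which lets them leave, was at -0.19 log2. The glucocorticoid-responsive genes had no member past the thresholds (0 of 16, median -0.10 log2). Among them, Txnip, an inhibitor of glucose uptake, was lower in all 3 pairs (-0.48, -0.63 and -0.34 log2) without passing.

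Genes that build ribosomes had the largest share of members above 0 in all 3 pairs among the 35 lists. Of 36 ribosome biogenesis and nucleolar genes, 32 had a mean above 0, 23 were above 0 in all 3 pairs, 8 (22.2%) were higher at the thresholds and 0 were lower. Their median was 0.43 log2 over the pairs and 0.41, 0.34 and 0.54 log2 within them. Over all genes 2808 of 18194 were above 0 in all 3 pairs. Ncl (nucleolin), which packs the rDNA and processes pre-rRNA, read 0.00, -0.54 and 0.97 log2 in controls and 1.47, 1.36 and 1.86 log2 after stimulation, with no overlap and a mean of 1.42 log2 (2.68-fold, standard error 0.24). Its other 4 probe sets were at -0.16 to 0.39 log2 and none passed. Nhp2, a protein of H/ACA particles, was at 0.92 log2 and the RNA helicase gene Ddx21 at 0.63 log2, the latter not past the thresholds without pair 3. Beside Ncl and Nhp2, the other 6 (Ddx21, Nolc1, Tsr1, Nop58, Nop16 and Bysl) each lost the call without at least 1 pair, with means of 0.36 to 0.96 log2 then. Of 27 genes of cytosolic ribosomal proteins, with which these factors build ribosomes, 0 passed and the median was 0.04 log2. Of 45 mitochondrial ribosomal protein genes 2 (4.44%, Mrpl36 and Mrps5, neither without pair 2) were higher, near the 2.81% of all genes, with a median of 0.05 log2. Myc, the transcription factor that drives growth, was at 1.34 log2 (2.54-fold, standard error 0.29) and Srm, which makes spermidine, at 1.33 log2 (2.52-fold, standard error 0.28), while the median of the 22 genes of growth control was 0.08 log2. Odc1, which makes putrescine, was the other gene of that list that passed. It did not pass with any pair left out, although its mean stayed at 0.59 to 0.67 log2.

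Metabolic supply lines differed among themselves. Of 27 genes of the amino acid and unfolded protein responses 5 (18.5%) were higher, namely Shmt2 and Mthfd2, the mitochondrial enzymes of one-carbon metabolism, Psat1 of serine synthesis, the amino acid transporter Slc7a5 and Chac1, which degrades glutathione. Shmt2 read -1.08, 0.67 and 0.00 log2 in controls and 0.04, 1.55 and 1.00 log2 after stimulation, so that the groups overlapped although the differences were 1.12, 0.87 and 1.00 log2. Shmt2, Mthfd2 (0.76 log2) and Chac1 (1.16 log2) passed with any 1 pair left out, and Psat1 and Slc7a5 did not without pair 1 or pair 3. Of 18 glycolysis genes 3 (16.7%) were higher and 1 (5.56%) lower. Hk2, the inducible hexokinase, moved from -0.49, 0.00 and 0.50 log2 to 1.48, 1.10 and 2.62 log2, with no overlap and a mean of 1.73 log2 (3.33-fold, standard error 0.33). Pgam1 and Tpi1, further enzymes of the pathway, were at 0.76 and 0.72 log2. The glucose transporter gene Slc2a3 was lower on one probe set at -0.87 log2, and neither it nor Tpi1 passed without pair 3. Oxidative phosphorylation had 4 of 44 genes (9.09%) higher (Ndufc1, Ndufab1, Ndufb6 and Cox6c) and 3 (6.82%) lower (Ndufb9, Ndufs7 and Sdha), with a median of 0.12 log2. The proteasome had 2 of 36 higher (Psmc4 and Psmd7) and 2 lower (Psma1 and Psma5), with a median of 0.13 log2, and the aminoacyl-tRNA synthetases 2 of 25 higher (Eprs and Eef1e1) and 2 lower (Farsb and Wars2), with a median of 0.18 log2. Of 22 cholesterol genes Cyp51 was higher (4.55%, median 0.06 log2), and of 23 cytosolic chaperones Hspd1 (4.35%, median 0.19 log2). Over all genes 2.81% were higher and 2.33% lower, also counted by any probe set. Among the called members of these 5 lists, Ndufc1 and Farsb alone passed with any 1 pair left out. Other probe sets of Farsb were at -0.19 to 0.19 log2 without pair 1, and those of Psma5 at 0.33 and 0.38 log2. Without pair 1 there were 3 higher and 0 lower in oxidative phosphorylation, 1 and 0 in the proteasome, 1 and 2 among the synthetases, 0 and 0 among the cholesterol genes and 3 and 0 among the chaperones.

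Genes of DNA replication and of mitosis were higher in part. Of 41 replication and nucleotide synthesis genes 10 (24.4%) were higher and 0 lower, and of 31 mitosis and spindle genes 7 (22.6%) and 0, with medians of 0.18 and 0.30 log2. The smallest p in these lists belonged to Cdk6 and Ccnd2, which act in G1. Cdk6, a kinase that opens the G1 to S transition, read -0.42, 0.00 and 1.86 log2 in controls and 1.33, 1.31 and 3.68 log2 after stimulation, where replicate 3 was high in both arrays, and its difference was 1.63 log2 (3.09-fold, standard error 0.19). Ccnd2, the cyclin D2 partner of Cdk6, was at 1.14 log2 (2.20-fold, standard error 0.15) with differences of 0.96, 1.11 and 1.33 log2. Uhrf1, which keeps DNA methylation through replication, was at 1.76 log2 with 0.56 log2 in pair 2. Mki67, the proliferation antigen, was at 1.04 log2 and Tpx2, a spindle assembly factor, at 1.38 log2 on one probe set and at -0.06 to 0.15 log2 on 3 others. These 5 passed with any 1 pair left out. The other 12 (Mcm2, Cdc25a, Gins1, Tk1, Cdc45, Rrm1 and Rrm2, and Smc2, Top2a, Ccna2, Kif2c and Kif11) did not, with means of 0.34 to 1.21 log2 when the call was lost. Without pair 1 the replication list had 7 higher and 1 lower. Of 19 Bcl2 family and cell death genes 3 (15.8%) were higher and 1 (5.26%) lower (Cflar, an inhibitor of caspase 8, at -0.86 log2 and not without pair 2 or pair 3). That call came from a single probe set, at -1.16 log2 without pair 1, where the other probe sets of Cflar were at 0.02 to 0.32 log2. Bcl2l1 (Bcl-xL), a survival protein that CD28 costimulation induces, was at 1.49 log2 (2.81-fold, standard error 0.27) from 0.00, 1.09 and -0.72 to 1.44, 2.14 and 1.26 log2, and its relative Bcl2 at 1.02 log2. The pro-apoptotic Bid was at 1.62 log2, or 1.23 log2 without pair 1, where it did not pass. Of 19 p53 and damage genes 2 were higher (Gadd45b and Phlda3, neither without pair 1), and of 25 interferon-stimulated genes 1 (Irf9, not without pair 2 or pair 3).

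The largest mean differences among probe sets changed at least 1.5-fold in every pair included genes outside these lists. Highest was Bcat1, the cytosolic enzyme that starts the breakdown of branched-chain amino acids. It read -2.25, 0.02 and 0.00 log2 in controls and 3.91, 2.69 and 3.25 log2 after stimulation, a mean of 4.03 log2 (16.3-fold, standard error 0.89) that was 2.96 log2 without pair 1. Gfra2, a receptor for neurturin, followed at 3.65 log2, with a standard error of 1.20 and no pass with any pair left out. Ccl22 and Ccr8, given with the chemokines, came next. Kynu, an enzyme of the kynurenine pathway, was at 3.01 log2 (0.07, 0.00 and -0.29 log2 to 3.29, 3.56 and 1.96 log2). Esco2, a cohesin acetyltransferase of S phase, was at 2.91 log2 and did not pass without pair 2. The differences of Fcer2a (CD23), the low-affinity IgE receptor known best from B cells, were 2.39, 3.00 and 3.28 log2 (mean 2.89 log2, 7.42-fold, standard error 0.32). Beside it, the mean over the B-cell markers was -0.73, 0.13 and 0.50 log2 in controls and -0.70, 0.10 and 0.85 log2 in stimulated arrays, and 1 of 6 was higher. Their part in the Fcer2a difference was not tested. Adm (adrenomedullin) was at 2.63 log2, Gata1, an erythroid and mast cell factor, at 2.62 log2, and Lad1 and Tnnt2, an epithelial and a cardiac gene by their usual sites, at 2.55 log2 each. Gata1 had a standard error of 0.97 and did not pass without pair 1 or pair 3. Tnnt2 rested more on pair 1, with 4.68 log2 there and 1.48 log2 over the other pairs. Not all of these values were shared by the other probe sets of the gene, which were at 0.40 and 0.50 log2 for Bcat1, -0.21 to 0.90 log2 for Gfra2, 0.27 log2 for Kynu and 0.40 log2 for Esco2, against 1.28 log2 for Fcer2a and 1.26 log2 for Adm.

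Among the genes that were lower, Edem2, a mannosidase-like protein of ER quality control, was at -2.45 log2 (2.04, 0.00 and -0.20 log2 in controls and -0.57, -2.64 and -2.29 log2 after stimulation, without overlap). Zg16, a lectin of secretory granules, was at -2.29 log2 and Dusp16 at -2.24 log2. Gpcpd1, a glycerophosphocholine phosphodiesterase, was at -2.07 log2, and Rnd2 at -2.02 log2, of which pair 1 held -3.89 log2 and the other 2 a mean of -1.08 log2. Kif3a, a motor of the primary cilium, Fgd5, Wdr31, Tbc1d5, Caprin2 and Tia1, which binds RNA in stress granules, lay between -2.01 and -1.81 log2. 0610040B10Rik, a gene without a descriptive name, was at -2.18 log2. Edem2 and 0610040B10Rik did not pass without pair 1 or pair 2, Tia1 without the same pairs, and Wdr31 without pair 2. These values came from single probe sets. Other probe sets of the genes were at 0.10 log2 for Edem2, 0.38 log2 for Dusp16, 0.18 log2 for Wdr31, 0.21 log2 for 0610040B10Rik, -0.37 to -0.25 log2 for Gpcpd1, -0.46 to 0.22 log2 for Kif3a, -0.01 to 0.07 log2 for Tbc1d5, -0.34 to 0.08 log2 for Tia1 and -0.72 and -0.25 log2 for Zg16.

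**Figure D3:**
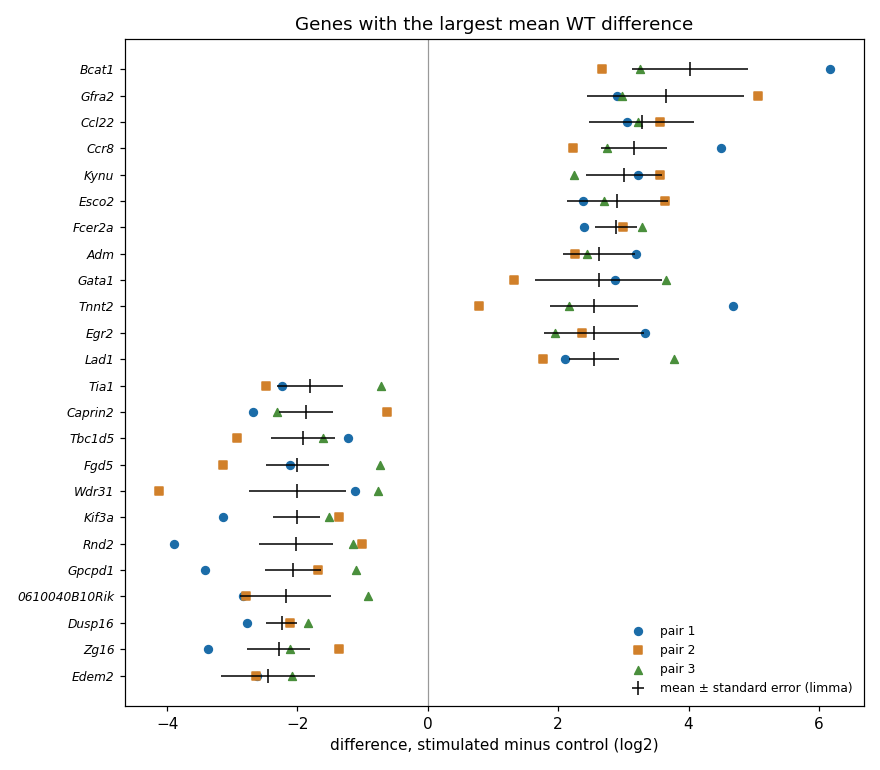
The 12 genes with the largest mean WT difference in each direction among probe sets past the thresholds and at least 1.5-fold in every pair. Points give the log2 difference (stimulated minus control) of pairs 1, 2 and 3, and the bar with its whiskers the mean and its standard error from limma. Fcer2a and Dusp16 have tightly grouped points, whereas Bcat1, Tnnt2 and Rnd2 have pair 1 far from the others.

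Agreement between probe sets of the same gene was counted first over all pairs of probe sets, without regard to p-values, and then around those past the thresholds. Of 18194 genes, 9012 had 2 or more probe sets, which made 30406 pairs of probe sets. In 58.2% of these the 2 mean differences had the same sign, where the share of positive values alone would give 50%, and the share was 55.1%, 55.6% and 60.8% in the 3 pairs of arrays. The mean differences of 2 probe sets of a gene correlated at 0.22 across the 30406 pairs, which share arrays and often overlap in sequence. With 1 or both past the thresholds (1760 pairs) 70.6% had the same sign, and with both past them (124 pairs) 117 did and 7 did not. Beside a higher probe set, 792 of 1035 others of the gene (76.5%) were above 0 with a median of 0.25 log2. Beside a lower one, 568 of 849 (66.9%) were below 0 with a median of -0.12 log2. Of 379 higher genes with 2 or more probe sets 61 (16.1%) had a second one past the thresholds in the same direction, and of 328 lower genes 19 (5.79%) did. Probe sets without a gene in the annotation leaned to the lower side, with 45 of 9211 higher (0.489%) and 167 lower (1.81%), whereas those with 1 gene leaned to the higher side, with 588 (1.68%) and 444 (1.27%). Higher calls were thus repeated within a gene more often than lower ones in these counts, and the difference between the 2 was not tested.

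Ccnd2 had 5 of 7, at 0.85 to 1.15 log2, and its other 2 were at 0.57 and 0.37 log2. Tspan33, a tetraspanin of activated B cells and erythroid precursors, had 4 of 4, Marcks, an actin-binding substrate of protein kinase C, 4 of 7, and Tnnt2 and Cdk6 each 3 of 3 (1.56, 1.58 and 2.55 log2, and 0.94, 1.47 and 1.63 log2). These 5 were taken in order of the count, and further genes also had 3. Among those, chosen after their values were seen, were Gadd45b and the MHC class II gene H2-Ab1 with 3 of 3 on the higher side (0.83 to 1.01 and 0.72 to 0.88 log2) and Tcta, with 3 of 4, on the lower side (-0.76 to -0.61 log2). By contrast 6 genes had probe sets past the thresholds in opposite directions. Phf20l1, a reader of methylated lysine, had one at 2.04 log2 and one at -0.93 log2 with 3 more between -0.49 and -0.19 log2. Crem, a cAMP-responsive factor with many transcript forms, had 2 at 1.28 and 0.95 log2 and one at -1.22 log2, of which pair 2 alone held -2.80 log2. Smyd4 differed by 2.34 log2, Clic5 by 1.79, C2cd2 by 1.44 and Aacs by 1.32 between its opposite probe sets. For these 6 genes no direction is given.

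**Figure D4:**
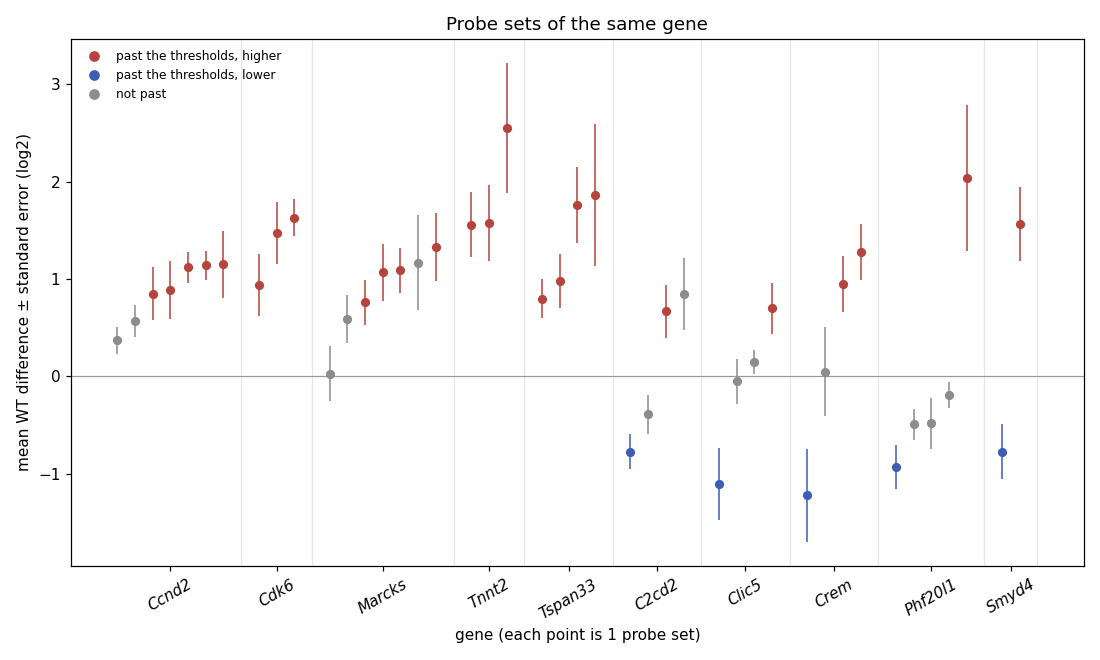
Mean WT difference (log2, stimulated minus control) with its standard error from limma for every probe set of the 5 genes with the most probe sets past the thresholds (left) and of the 5 genes with the largest gap between probe sets past them in opposite directions (right). Red and blue points passed the thresholds on the higher and lower side and grey ones did not. All 3 probe sets of Cdk6 are red between 0.94 and 1.63 log2, whereas Crem has points at 1.28 and -1.22 log2.

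The N-ras KO cells give the same comparison in the other genotype, with a doubt about 2 replicate numbers. Beside the low Nras values of WT replicate 1, the arrays of N-ras KO replicate 3 read 2.04 and 2.09 log2 (control and stimulated, relative to the median N-ras KO control) on one Nras probe set, where the other N-ras KO arrays read -0.04 to 0.51 log2, so that Nras went against both labels. The difference between the responses (WT minus N-ras KO) passed an adjusted p of 0.05 for 0 of 45101 probe sets (0%), and 2067 (4.58%) reached an unadjusted p of 0.05. Without these 2 numbers it passed for 0 again, and 2545 (5.64%) reached the unadjusted p. At the thresholds 1322 of 18194 genes (7.27%) differed in either direction over all 6 pairs.

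Among the early activation genes the mean differences were 1.13 log2 (WT) and 1.27 log2 (N-ras KO) for Cd69, 0.96 and 1.10 log2 for Cd83, 1.00 and 1.08 log2 for Egr1 and 2.13 and 1.83 log2 for Nr4a3. They stood further apart for Egr2, at 2.55 and 5.40 log2, and for Irf4, at 1.59 and 2.39 log2. Without the doubted numbers these were 2.16 and 5.42 log2 for Egr2, 1.39 and 2.28 log2 for Irf4 and 1.10 and 1.31 log2 for Cd69. These genes do not stand for all early and activation genes. Myc was at 1.34 and 0.41 log2, or 1.56 and 0.01 log2 without the doubted numbers. In that setting the probe sets of Il2ra were at 1.93 and 0.24 log2 and at 1.54 and 0.46 log2. Those of Tnfrsf9 that were higher were at 1.92 and 0.49 log2 and at 1.70 and 1.96 log2, and Slamf1 was at 0.71 and 0.98 log2 on one. Among the genes of growth, survival and the cell cycle the values were 1.63 and -0.02 log2 for Cdk6, 1.42 and -0.21 log2 for Ncl and 1.49 and 0.01 log2 for Bcl2l1, and without the doubted numbers 1.57 and 0.18, 1.39 and 0.01, and 1.52 and -0.32 log2. These probe sets were the ones with the smallest p in WT cells. Without the doubted numbers the other probe sets of Ncl were at -0.06 to 0.48 log2 (WT) and -0.80 to -0.05 log2 (N-ras KO). One of Bcl2l1 was at -0.01 and -0.18 log2, and Tk1, of the replication list, at 0.68 and 0.83 log2. The 7 probe sets of Ccnd2 were not alike over all pairs, at 1.14 and 0.07 log2 on the one described above but 0.89 and 0.93 log2 and 0.37 and 0.50 log2 on 2 others. Without the doubted numbers these 3 probe sets were at 1.22 and 0.18, 1.10 and 0.49, and 0.40 and 0.59 log2. The second of them was then higher in WT, and the third was not. For Cdk6 the difference of the responses was 1.65 log2 (unadjusted p = 0.000873), or 1.38 log2 without the doubted numbers. For Lta, at 0.75 and -0.50 log2, it was 1.25 log2 (unadjusted p = 0.000837), or 1.24 log2. Neither passed the adjustment over all probe sets (adjusted p = 0.961 in limma, 0.863 without the doubted numbers), so that no gene was shown to respond in WT cells alone.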

How the data were processed

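Expression in CD4+ T cells was measured on Affymetrix arrays. The authors deposited log2 expression values, made per their methods with RMA-16 in GeneSpring GX11, quantile normalization and then by subtracting the median level of control samples. RMA is also the tool in the submitters' notes, with no version there. Low cRNA yields were amplified before hybridization, but the samples concerned are not given in the sources used. Since every control median is 0, no filter on brightness could be applied. Arrays carry no read depth, and their number (3 per group) limits the precision.

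Gene names came from GEO's platform annotation of the probe sets (34958 with 1 gene, 932 with several, 9211 not named here). The 3 WT and 3 N-ras KO differences, each taken within a replicate number, were fitted together with limma 3.58.1 in R 4.3.3 (lmFit, eBayes, two-sided), so that both genotypes estimate the spread, and adjusted over 45101 probe sets. An exact sign-flip test over 3 pairs cannot go below p = 0.25 and was not used. The numbers pair the samples: deviations of stimulated and control arrays with the same WT number correlated at 0.46, 0.45 and 0.74. The methods say both that sorted cells were split and that each condition used a different mouse. They also state that each repetition used different mice, while the sample titles name no mouse. The p-values measure only the spread between these samples.

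A gene was called when any probe set passed, and list medians use 1 probe set per gene, by type and then ID. Of 791 genes in 35 lists 725 were matched. Named genes were the 12 largest per direction, up to 3 per list, the targets of the sort and stimulus, and the 5 genes with most agreeing and most opposed probe sets. Beyond these, the members past the thresholds of each list were named, and Gadd45b, H2-Ab1, Tcta, Icos, Ccl3, Ifng, Il4, Rel, Ccr7, Klf2 and S1pr1 as contrasts, after their values were seen. The members and lists were chosen with earlier results of these data known. The fit was tested on simulated data. Promoter windows came from RefSeq (GRCm38.p6).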

Additional observations from a re-analysis of the deposited data

Results flagged for a closer look

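In 7 of the named probe sets past the thresholds, all 3 WT differences lay on one side of 0 and all 3 N-ras KO differences on the other. Each was also tested as WT minus N-ras KO response in limma, and none passed the adjustment over all probe sets (adjusted p = 0.961 for each). The probe sets were picked by these same values, so that a difference between the responses follows from the choice. The share of all probe sets with this pattern was not counted. Lta was higher in WT (0.67, 0.81 and 0.78 log2) and lower in N-ras KO (-0.67, -0.21 and -0.62 log2), a difference of the responses of 1.25 log2. Eef1e1, a factor of the tRNA synthetase complex, differed by 0.88 log2, the mitochondrial ribosomal protein gene Mrps5 by 1.04 log2 and one of the opposed probe sets of Smyd4 by 2.05 log2. Tnnt2 differed by 2.79 log2, with -0.09, -0.08 and -0.56 log2 in N-ras KO. The other 2 probe sets of Tnnt2 did not have this pattern, with 0.22, 0.08 and 1.04 log2 and 0.08, 0.50 and -0.38 log2 in N-ras KO. Rnd2 and Wars2, the mitochondrial tryptophanyl-tRNA synthetase, were lower in WT and higher in N-ras KO, and differed by -2.63 and -1.27 log2. With groups of 3, no test for a single outlying sample was made.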

How the results depend on the processing

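The count of 0 probe sets at an adjusted p of 0.05 stood under every alternative run, for the WT response and for WT minus N-ras KO. Counts at the thresholds (645 higher, 617 lower) were 239 and 230 with no replicate block (12 arrays in 4 groups) and 191 and 160 in the methods' t-test, both of which ignore the pairing. At 2-fold they were 258 and 202, and 71 and 23 probe sets changed that much in every pair. Leaving out WT pairs 1, 2 or 3 in turn gave 638 to 770 higher and 587 to 818 lower, and 681 to 891 higher and 590 to 915 lower by at least 1.5-fold in every remaining pair, which are then only 2. Without WT replicate 1 and N-ras KO replicate 3 together, whose Nras values go against their labels, 963 were lower, and 681 and 915 were higher and lower in every pair. The median of the p53 list turned to -0.05 log2 under quantile normalization and to -0.01 log2 with array weights. The share of probe set pairs with the same sign ranged from 55.3% to 58.8%. Of 178 named probe sets past the thresholds, 105 passed without WT pair 1, 122 without pair 2, 108 without pair 3 and 71 in all 3 cases, and with no replicate block 124 of the named probe sets lost an unadjusted p under 0.05. A call could be lost with a pair left out while the mean hardly moved, as for Foxp3 and Odc1. Limits: with no brightness in the values, a probe set near background cannot be told from a bright one, and 3 pairs with correlations of at most 0.13 resolve few single genes.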
